A study of Oryctolagus cuniculus with 9 samples.

Results

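The 6 repair samples of rabbit knee cartilage, 3 from defects left empty and 3 from defects filled with a collagen scaffold, were compared as 1 group with 3 samples of healthy articular cartilage, to describe the response that both kinds of repair tissue shared. The comparison used 9 of the 9 RNA sequencing libraries of the series. The animals were New Zealand white rabbits aged 4 to 5 months, and tissue was taken 12 weeks after surgery. In each animal a critical size defect was drilled in the trochlear groove of the femur of both knees. The right defect received a collagen scaffold carrying chondroitin sulphate (CLCS) and the left one was left untreated. The healthy tissue came, according to the study's scheme, from the condyle. Healthy and repair tissue thus also differed in their site in the joint, and site and injury cannot be told apart in any comparison with healthy cartilage. The scheme shows 3 rabbits, so the 6 defect libraries are likely to come in pairs from 3 animals, although no source says that equal replicate numbers mark 1 rabbit. Where libraries share an animal they are not independent, and p-values measure the spread between these libraries.

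Articular cartilage is built by chondrocytes, which surround themselves with type II collagen, aggrecan and smaller proteoglycans, and which live without vessels at low oxygen tension. When cartilage is lost down to the bone, cells from the marrow can enter the defect. The tissue that fills it is often fibrocartilage, which holds type I collagen, the collagen of bone, tendon and scar, and is mechanically poorer than the original tissue.

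The libraries held between 724986 and 1226408 reads assigned to genes. Values are given as normalised reads, the reads of a gene divided by the size factor of its library. Expression differences are log2 fold changes of normalised reads plus 1, with the standard error (SE) of the fit, and they understate the change of genes near 0. A change was called at a Benjamini-Hochberg adjusted p under 0.05 over 3812 genes with enough reads to test. Untreated 3 stood apart. The most abundant gene of the series, for which the files give no symbol, took 1.49% of reads there against 17.8% to 49.4% in the other libraries, and its COL2A1 level was the lowest. Of 12 chondrocyte markers, 8 were matched by symbol and 6 could be tested. The summed level of the 8 was 7833 to 9767 normalised reads in healthy, 685 to 9567 in untreated and 9590.0 to 27178 in CLCS libraries. All 9 libraries held chondrocyte transcripts, with Untreated 3 far below the others. Markers of other cells are given beside the results they move with. The strand setting of the count is not given in the sources used here, so reads of genes that overlap or adjoin each other cannot be told apart. Many such neighbours in RefSeq are named beside the genes, but not all. HIF1A, MMP19, TMIE and HMGXB3, for example, each overlap a gene that has only a LOC number. Of the 287 called genes 223 were matched to RefSeq, so a gene given without a neighbour is not shown to have none.

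Between pooled defects and healthy cartilage 287 of 3812 genes (7.53%) were called. Of these, 183 (4.8%) were higher in defects and 104 (2.73%) lower, with median log2 fold changes of 1.82 and -1.80, while the median over all tested genes was -0.035. The counts of called members in the gene lists below are to be read beside these shares. In 275 of the 287 genes the 6 defect libraries and the 3 healthy libraries did not overlap, against 513 genes (13.5%) among all those tested. Nearly every called gene has this trait, so below it is a description and no separate support for a call. At an unadjusted p under 0.05 the count was 831 genes (21.8%). Of the called genes, 49 have no symbol in the files. The count fell to 136 (3.57%) when the untreated and CLCS libraries of equal number were averaged, leaving 3 against 3, and 131 of these genes were among the 287. It was 130 without Healthy 3 and 168 without Healthy 1. Without Untreated 3 it was 251, and 228 of them were among the 287.

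**Figure D1:**
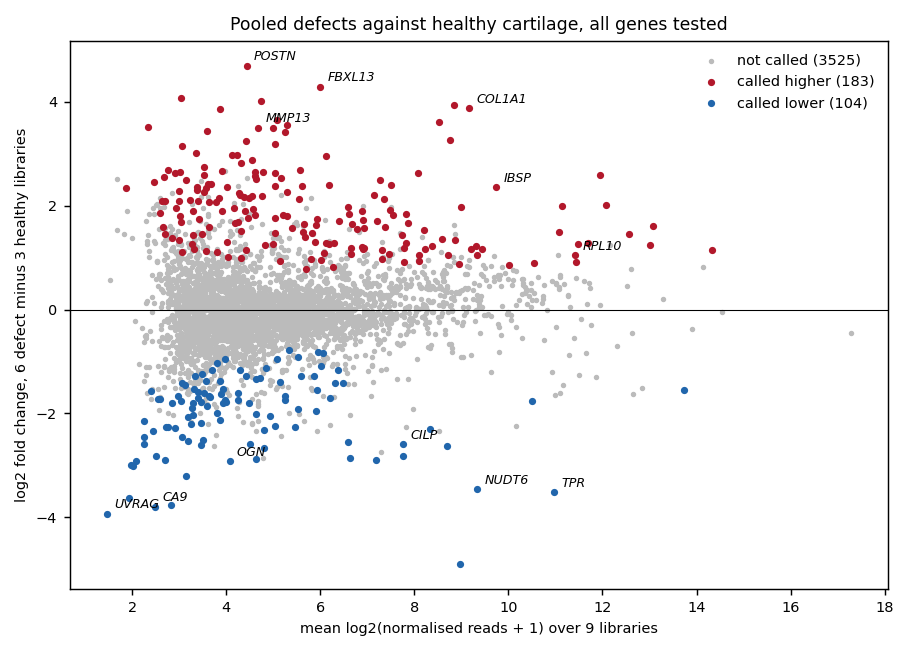
Mean level, as log2 of normalised reads plus 1 over 9 libraries (x axis), against the log2 fold change of 6 defect over 3 healthy libraries (y axis), 1 point per gene tested. Red points are the 183 genes called higher, blue points the 104 called lower and grey points the 3525 not called. POSTN lies highest and ENSOCUG00000005327 lowest.

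Of 17 tested genes of fibrous collagens and fibroblast matrix, 4 rose in the defects and 0 fell, with a list median of 1.21 against -0.035 over all genes. COL1A1, a chain of type I collagen, counted 247, 95.4 and 36.1 normalised reads in the healthy libraries, 1542, 795 and 1925 in untreated and 2052, 1208 and 1326 in CLCS treated defects. Every defect library lay above every healthy one, with means of 126 ± 109 (SD, n = 3) in healthy and 1475 ± 468 (SD, n = 6) in defect libraries (log2 fold change 3.87 ± 0.52, adjusted p = 0.00298, the error being the SE). COL1A2, its partner chain, counted 180.0, 50.7 and 35.2 normalised reads in the healthy libraries, 1014, 770.1 and 916 in untreated and 1099, 702 and 675 in CLCS treated defects (log2 fold change 3.61 ± 0.44, adjusted p = 0.00167). The 2 chains, which are assembled into 1 protein, had similar fold changes, and again no defect library reached down to the healthy ones.

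POSTN, periostin, a matricellular protein of periosteum and fibrous tissue, had the largest increase among all genes tested (log2 fold change 4.69 ± 0.54, adjusted p = 0.00128). It was almost absent from healthy cartilage, with 6.60, 1.01 and 0 normalised reads, and reached 68.5, 38 and 96.1 in untreated and 67.2, 63 and 59.8 in CLCS treated defects. LUM, the leucine-rich proteoglycan lumican that orders collagen fibrils, had only 1 read in the 3 healthy libraries together and counted 30.7, 6.0 and 63.5 in untreated and 15.5, 7.87 and 39.8 in CLCS treated defects (log2 fold change 4.07 ± 0.67, adjusted p = 0.00685). The fitted change therefore depends on the pseudocount, and the ratio of read rates was 87 with an exact 95% counting interval of 15.4 to 3458. COL1A1, COL1A2, POSTN and LUM all kept the call with averaged libraries and without any 1 library.

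Other fibroblast markers did not follow as a block. COL3A1, type III collagen, ranged from 79 to 1831 normalised reads in defects around healthy values of 226 to 389 (log2 fold change 0.92 ± 0.85, adjusted p = 0.591). DCN, decorin, which binds and spaces collagen fibrils, had 34.5 to 344 normalised reads in healthy and 10.002 to 43.3 in defect libraries (log2 fold change -2.01 ± 0.65, adjusted p = 0.0940), with overlapping groups. The 8 fibroblast markers together summed to 506 to 1036 normalised reads in healthy libraries. Untreated libraries reached 1712 to 4894 and CLCS libraries 2414 to 3961. Most of each defect sum was COL1A1, COL1A2, POSTN and LUM, called genes themselves, so the sum is no separate measure. The part of fibroblasts in the matrix result was not tested. In bulk tissue, more cells of a type and more RNA per cell cannot be told apart.

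**Figure D2:**
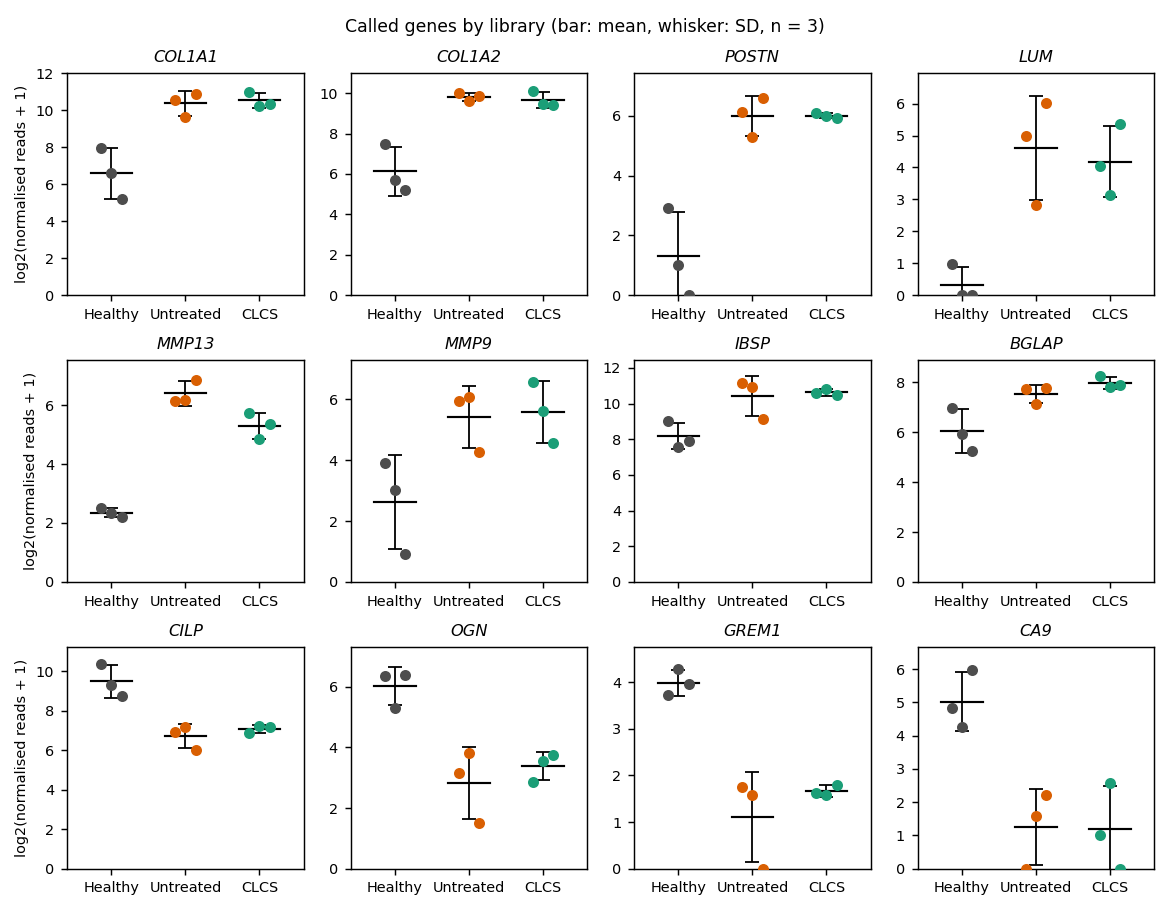
Levels of 12 called genes by library, as log2 of normalised reads plus 1, with the mean (bar) and SD (whisker) of 3 libraries per group. COL1A1, COL1A2, POSTN, LUM, MMP13, MMP9, IBSP and BGLAP lie higher, and CILP, OGN, GREM1 and CA9 lower, in all 6 defect libraries than in the 3 healthy ones.

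Among 14 tested genes of collagen processing and crosslinking 1 rose and 0 fell, a share near the 4.8% of all genes that rose. The list median of -0.046 turned positive without Healthy 1, Untreated 2 or CLCS 2. The gene that rose was BMP1, the protease that cuts the C-propeptide from fibrillar procollagens, with 0 to 7.54 normalised reads in healthy and 14.2 to 28.6 in defect libraries (log2 fold change 2.74 ± 0.55, adjusted p = 0.0148). The groups did not overlap. With averaged libraries its adjusted p was 0.0955, which no longer passed. BMP1 lies within 1000 bases of SFTPC.

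Of 12 tested genes of the cartilage matrix 0 rose and 1 fell, while 2.73% of all tested genes fell. The fitted change was negative in 11 of them, against 1999 of 3812 genes tested, and the list median was -0.70. Set against the same healthy libraries, the median was -1.29 in untreated but only -0.18 in CLCS treated defects. The gene that fell was CILP, the cartilage intermediate layer protein, which counted 1332, 633 and 436 normalised reads in the healthy libraries, 119, 145 and 64.4 in untreated and 116, 152 and 142 in CLCS treated defects. No defect library came near the healthy range (log2 fold change -2.59 ± 0.39, adjusted p = 0.00445), and the call stood without any 1 library and with averaged libraries.

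The defining genes of cartilage did not pass. That does not show them to be unchanged, since in simulated data the fit called 0 of 181 genes given a log2 change of 1. COL2A1, the main collagen of cartilage, counted 8610.0, 7968 and 6874 normalised reads in the healthy libraries, 8816, 4062 and 458 in untreated and 8971, 9082 and 25533 in CLCS treated defects (log2 fold change -0.45 ± 0.99, adjusted p = 0.840). Untreated 3 was the lowest and CLCS 3 the highest of the 9 libraries, and without Untreated 3 the change was 0.28, on the other side of 0. ACAN, aggrecan, which draws water into the tissue, counted 574, 526 and 307 normalised reads in the healthy libraries, 279.7, 276 and 99.7 in untreated and 248, 383 and 524 in CLCS treated defects (log2 fold change -0.74 ± 0.46, adjusted p = 0.391). HAPLN1, the link protein that fixes aggrecan to hyaluronan, had 31.5 to 40.5 normalised reads in healthy and 7.23 to 34.9 in defect libraries (log2 fold change -0.86 ± 0.47, adjusted p = 0.327), and COL11A1, a minor fibrillar collagen of cartilage, 205 to 325 and 82.5 to 265 (log2 fold change -0.83 ± 0.40, adjusted p = 0.261). SOX9, the transcription factor that sets the chondrocyte programme, had too few reads to test. It counted 33, 41.6 and 3.61 normalised reads in the healthy libraries, 4.73, 4.0 and 3.63 in untreated and 4.13, 7.87 and 11.2 in CLCS treated defects, so that Healthy 3 lay at the level of the defects. In each of the 6 tested chondrocyte markers defect and healthy libraries overlapped.

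**Figure D3:**
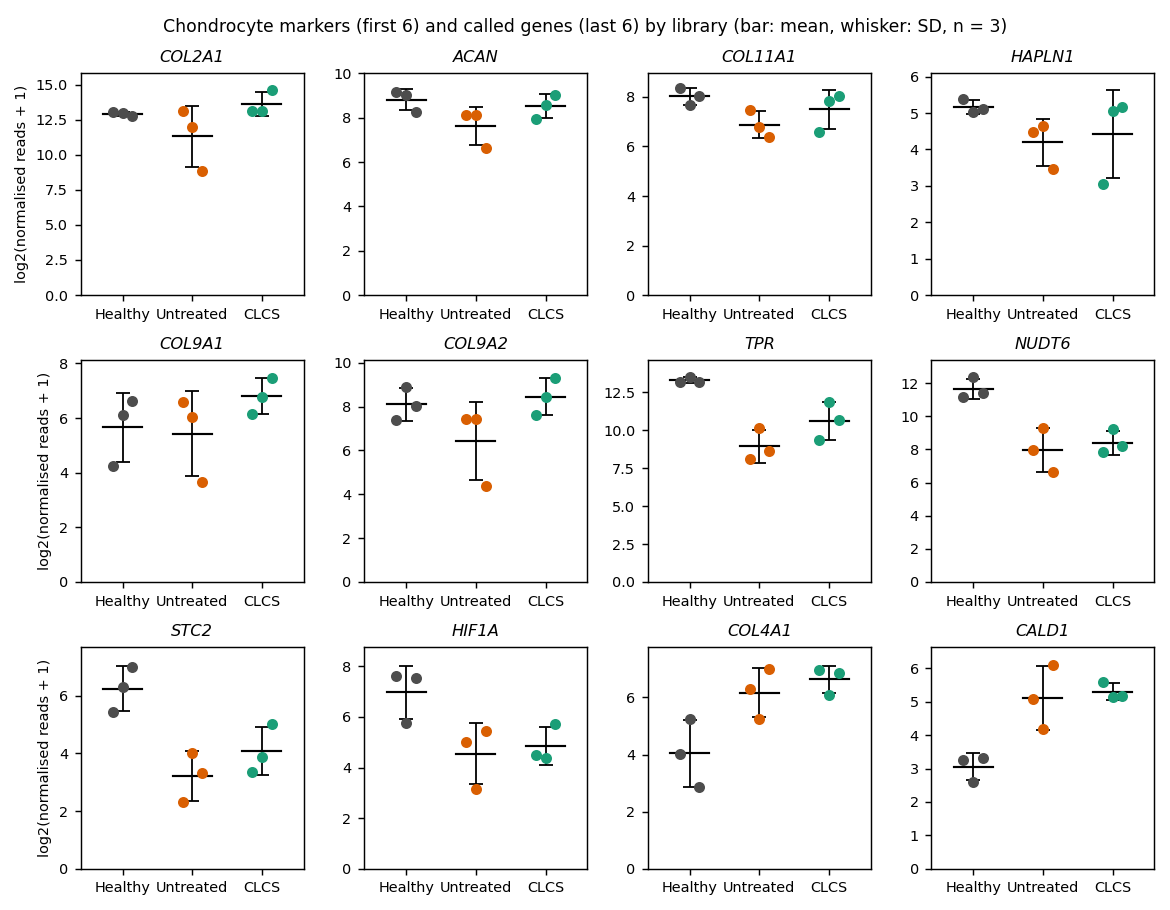
Levels of 6 chondrocyte markers (COL2A1, ACAN, COL11A1, HAPLN1, COL9A1 and COL9A2) and of 6 called genes (TPR, NUDT6, STC2, HIF1A, COL4A1 and CALD1) by library, as log2 of normalised reads plus 1, with the mean (bar) and SD (whisker) of 3 libraries per group. In the chondrocyte panels the groups overlap, and Untreated 3 is the lowest untreated library in all 6.

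The small leucine-rich proteoglycans, which bind collagen fibrils and growth factors, gave 1 call in each direction. Of 9 tested, LUM rose, OGN fell, and the median was -0.57. OGN, osteoglycin, counted 81, 38.6 and 83.1 normalised reads in the healthy libraries, 7.88, 13 and 1.81 in untreated and 6.20, 10.8 and 12.5 in CLCS treated defects (log2 fold change -2.92 ± 0.50, adjusted p = 0.00890), against the direction of LUM. It kept the call without any 1 library and overlaps CENPP in RefSeq.

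In the list of BMP and Wnt modulators 0 of 10 tested rose and 3 fell, with a median of -0.50. GREM1, gremlin, which binds and blocks BMPs, counted 12.2, 18.3 and 14.5 normalised reads in the healthy libraries, 2.36, 2.0 and 0 in untreated and 2.07, 1.97 and 2.49 in CLCS treated defects (log2 fold change -2.59 ± 0.39, adjusted p = 0.00487). It was low in every defect library and kept its call without any 1 library. FZD9, a Wnt receptor, had 11.3 to 19 normalised reads in healthy and 0 to 4.92 in defect libraries (log2 fold change -2.91 ± 0.54, adjusted p = 0.0119), and missed the call only without Healthy 3 (0.0545), the value in brackets being the adjusted p here and in the following paragraphs. SMOC2, a matricellular protein, had 60.3 to 160.3 and 17.3 to 52.3 (log2 fold change -1.74 ± 0.41, adjusted p = 0.0303). Its call was the weakest of the 3: it was missed in 8 of 9 fits without 1 library (adjusted p 0.0506 to 0.0970), all but that without CLCS 3, and with averaged libraries (0.0903).

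Of 7 tested matrix metalloproteinases (MMPs), which cleave collagens and other matrix proteins, and their inhibitors, 4 rose in defects and 0 fell, with a median of 1.93. MMP13, collagenase 3, cuts type II collagen and is made by hypertrophic chondrocytes and bone cells. It counted 4.71, 4.06 and 3.61 normalised reads in the healthy libraries, 70.1, 71 and 116 in untreated and 51.7, 27.6 and 39.8 in CLCS treated defects. The healthy libraries were tightly grouped, every defect library was far higher (log2 fold change 3.50 ± 0.40, adjusted p = 0.00127), and the call stood with averaged libraries (adjusted p 0.00672). MMP13 was also the only called gene among 6 tested of the chondrocyte hypertrophy list, whose median was 0.71.

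The other 3 rose with less certainty. MMP9, a gelatinase of osteoclasts and leukocytes, counted 14.1, 7.10 and 0.903 normalised reads in the healthy libraries, 60.7, 67 and 18.1 in untreated and 94, 48.2 and 22.4 in CLCS treated defects (log2 fold change 2.88 ± 0.68, adjusted p = 0.0301). MMP2, the gelatinase of fibroblasts, had 0 to 5.65 normalised reads in healthy and 8.0 to 26.3 in defect libraries (log2 fold change 2.65 ± 0.55, adjusted p = 0.0168), and MMP19 6.32 to 15.2 and 26.6 to 61.7 (log2 fold change 1.93 ± 0.35, adjusted p = 0.0107). With averaged libraries their adjusted p lay between 0.0535 and 0.111, which no longer passed. The groups of these 3 genes did not overlap, as in 275 of the 287 called genes. MMP2 missed the call without Healthy 2 (0.0541) and Healthy 3 (0.0672), MMP19 without Healthy 3 (0.0523), and MMP9 in 6 of 9 fits, those without Healthy 2, Healthy 3, Untreated 1, Untreated 2, CLCS 1 and CLCS 2 (adjusted p 0.0548 to 0.103). Among 4 tested ADAMTS proteases, a related family that includes the aggrecanases, 0 were called, and the sign of their median turned in 5 of the alternatives.

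In the list of osteoblasts and mineral matrix 2 of 9 tested rose and 0 fell, with a median of 1.19. IBSP, bone sialoprotein, counted 512, 192 and 243 normalised reads in the healthy libraries, 2323, 1946 and 559 in untreated and 1548, 1828 and 1417 in CLCS treated defects (log2 fold change 2.35 ± 0.46, adjusted p = 0.0141). Its lowest defect library, Untreated 3, was only just above the highest healthy one. BGLAP, osteocalcin, a late product of osteoblasts, counted 126, 60.9 and 37 normalised reads in the healthy libraries, 210.3, 140.0 and 216 in untreated and 302, 223 and 238 in CLCS treated defects (log2 fold change 1.70 ± 0.37, adjusted p = 0.0215) and overlaps PAQR6, which had 13 to 67 reads in healthy and 37 to 271 in defect libraries. IBSP kept its call with averaged libraries (adjusted p 0.0465) and BGLAP did not (0.0977). Leaving out 1 library cost IBSP its call without Healthy 2 (0.0517) and Healthy 3 (0.0604), and BGLAP without Healthy 2 (0.0651) and Healthy 3 (0.0897). DMP1, a matrix protein of osteocytes, had 6.09 to 37.7 normalised reads in healthy and 19 to 67.7 in defect libraries and did not pass (log2 fold change 1.65 ± 0.61, adjusted p = 0.138). The summed osteoblast markers, 5 of 6 matched, spanned 275 to 707 in healthy, 804 to 2648 in untreated and 1711 to 2128 in CLCS libraries. Most of each defect sum was IBSP and BGLAP, the called genes themselves, so this sum too is no separate measure. The part of bone in the harvested tissue was not tested.

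Of the osteoclast list 2 of 3 tested rose, MMP9 and CTSK, with a median of 2.65. CTSK, cathepsin K, with which osteoclasts degrade bone collagen, counted 17.9, 9.13 and 0.903 normalised reads in the healthy libraries, 74.8, 63 and 43.5 in untreated and 53.7, 36.4 and 17.4 in CLCS treated defects (log2 fold change 2.65 ± 0.67, adjusted p = 0.0386). CLCS 3, the lowest defect library, lay slightly below Healthy 1, so the groups overlapped. CTSK lies within 1000 bases of ARNT. The call was missed in 7 of 9 fits without 1 library, those without Healthy 2, Healthy 3, Untreated 1, Untreated 2, Untreated 3, CLCS 1 and CLCS 2 (adjusted p 0.0579 to 0.107), and with averaged libraries (0.134). The 7 matched osteoclast markers summed to 6.32 to 34.9 normalised reads in healthy cartilage and to 68 to 165 and 46.1 to 170.5 in untreated and CLCS treated defects. Most of each defect sum was CTSK and MMP9, the called genes themselves, so the sum is no separate measure. DCSTAMP, a fusion protein of osteoclasts, had no read in healthy libraries and at most 2.0 normalised reads in defect libraries, and CALCR, OCSTAMP and TNFRSF11A were at most 6.89, 4.0 and 8.27 in any library.

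Of 6 tested monocyte and macrophage genes 1 rose and 0 fell, with a median of 0.59, while 4.8% of all tested genes rose. CSF1R, the receptor for the macrophage growth factor M-CSF, had 1.81 to 7.10 normalised reads in healthy and 10.2 to 16.3 in defect libraries (log2 fold change 1.43 ± 0.33, adjusted p = 0.0254). It missed the call without Healthy 1 (0.0603) and Healthy 3 (0.0866) and with averaged libraries (adjusted p 0.117). HMGXB3 lies within 1000 bases of CSF1R and counted 1121, 1513 and 984 normalised reads in the healthy libraries, 5108, 10690.0 and 8242 in untreated and 8076, 6439.5 and 5590.3 in CLCS treated defects (log2 fold change 2.59 ± 0.29, adjusted p = 0.00127), far above CSF1R in every library. HMGXB3 was picked after its values were seen. Macrophage markers, 9 of 10 matched, summed to 24.4 to 30.2 normalised reads in healthy, 40.01 to 222 in untreated and 62.3 to 70.3 in CLCS libraries. Most of the highest sum was TYROBP, an adaptor of myeloid receptors, at 151 in Untreated 3. C1QA, CD163 and MSR1 had no read in healthy cartilage and few in the defects, where C1QA reached 10.9 normalised reads in Untreated 3 and was 0 in 3 of 6 libraries, and CD163 and MSR1 were at most 0.907 and 1.25.

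In the basement membrane list 2 of 12 tested rose and 0 fell, while 4.8% of all tested genes rose. The list median of 0.06 changed sign without Healthy 3 or CLCS 3. The genes that rose were COL4A1 and COL4A2, the paired chains of type IV collagen, which adjoin each other in the genome. COL4A1 counted 15.1, 36.5 and 6.32 normalised reads in the healthy libraries, 77.2, 37 and 125 in untreated and 123, 66.9 and 116 in CLCS treated defects (log2 fold change 2.37 ± 0.53, adjusted p = 0.0230), and COL4A2 had 6.32 to 14.2 normalised reads in healthy and 22.1 to 58 in defect libraries (log2 fold change 1.81 ± 0.38, adjusted p = 0.0170). COL4A1 lost the call without Healthy 1 (0.0705) and Healthy 3 (0.0959), and COL4A2 without Healthy 1 (0.0580) and Healthy 3 (0.0818). With averaged libraries their adjusted p were 0.0929 and 0.0520. Of defining endothelial markers, whose part in the type IV collagen values was not tested, 7 of 7 were matched and 0 had enough reads to test, with summed levels of 1.01 to 5.65 normalised reads in healthy and 5.44 to 16.5 in defect libraries. PECAM1, VWF and FLT1 had no read in healthy cartilage. In the wider endothelial list 0 of 2 tested passed. PLVAP, a protein of fenestrated endothelium, had 0 to 5.07 normalised reads in healthy and 4.98 to 16.3 in defect libraries (log2 fold change 1.97 ± 0.54, adjusted p = 0.0533), and ESAM, an endothelial adhesion molecule, 49 to 69 and 35.4 to 64 (log2 fold change -0.31 ± 0.24, adjusted p = 0.531).

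Of 6 tested smooth muscle and contractile genes CALD1 and MYH11 rose and 0 fell, with a median of 0.63. CALD1, caldesmon, which binds actin and myosin, had 5.07 to 9.03 normalised reads in healthy and 17 to 67.1 in defect libraries (log2 fold change 2.15 ± 0.38, adjusted p = 0.00989) and kept its call without any 1 library. MYH11, smooth muscle myosin, had 312 to 403 and 559 to 1073 (log2 fold change 1.16 ± 0.26, adjusted p = 0.0226). MYH11 missed the call without Healthy 1 (0.0755) and Healthy 3 (0.0892), and with averaged libraries (adjusted p 0.0764).

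Of 15 tested genes of the response to low oxygen 0 rose and 4 fell, with a median of -0.37. CA9, a carbonic anhydrase and a classical target of hypoxia inducible factors, counted 27.3, 18.3 and 62.3 normalised reads in the healthy libraries, 0, 2.0 and 3.63 in untreated and 1.03, 4.92 and 0 in CLCS treated defects (log2 fold change -3.79 ± 0.63, adjusted p = 0.00685). All defect libraries lay far below the healthy ones, and the call stood without any 1 library. CA9 lies within 1000 bases of TPM2, which had 28 to 103 reads in healthy and 14 to 46 in defect libraries. STC2, stanniocalcin 2, counted 42.4, 77.1 and 126 normalised reads in the healthy libraries, 3.94, 15 and 9.07 in untreated and 9.30, 13.8 and 31.1 in CLCS treated defects (log2 fold change -2.59 ± 0.53, adjusted p = 0.0168), and missed the call without Healthy 2 (0.0508) and Healthy 3 (0.0783). Both passed with averaged libraries.

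HIF1A and ADM fell as well, with calls that most fits without 1 library missed. HIF1A, the oxygen regulated subunit of hypoxia inducible factor, counted 194, 52.8 and 187 normalised reads in the healthy libraries, 31.5, 8.0 and 42.6 in untreated and 21.7, 19.7 and 52.3 in CLCS treated defects (log2 fold change -2.26 ± 0.59, adjusted p = 0.0439). Its groups nearly touched, at 52.3 in CLCS 3 and 52.8 in Healthy 2. ADM, the vasodilator peptide adrenomedullin, had 17.3 to 39.8 normalised reads in healthy and 4.13 to 14.9 in defect libraries (log2 fold change -1.61 ± 0.42, adjusted p = 0.0439). HIF1A missed the call in 6 of 9 fits without 1 library, those without Healthy 1, Healthy 3, Untreated 1, Untreated 2, CLCS 1 and CLCS 2 (adjusted p 0.0511 to 0.160). ADM missed it in 7 of 9 fits, those without Healthy 1, Healthy 2, Healthy 3, Untreated 1, Untreated 2, Untreated 3 and CLCS 1 (adjusted p 0.0627 to 0.170). With averaged libraries the adjusted p were 0.113 and 0.0833. In the list of glucose uptake and glycolysis 0 of 10 passed, with a median of -0.61 (-0.96 in untreated and -0.29 in CLCS treated defects).

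Among 10 inflammatory and prostaglandin genes 0 rose and 1 fell, with a median of -0.74, while 2.73% of all tested genes fell. TNIP1, an inhibitor of NF-kB signalling, had 56.8 to 146 normalised reads in healthy and 8.16 to 34.4 in defect libraries (log2 fold change -2.32 ± 0.49, adjusted p = 0.0185), and missed the call without Healthy 1 (0.0759) and Healthy 3 (0.0518). It lies within 1000 bases of GPX3.

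Of 13 tested lysosome and proton pump genes SLC15A3, CTSK and LAMTOR1 rose and 0 fell, with a median of 0.56. SLC15A3, a lysosomal transporter of peptides and histidine, counted 51.8, 76.1 and 51.5 normalised reads in the healthy libraries, 241, 370.1 and 397 in untreated and 371, 317 and 233 in CLCS treated defects (log2 fold change 2.40 ± 0.27, adjusted p = 0.00127). Its groups were well apart, it kept the call without any 1 library, and it overlaps TMEM132A. LAMTOR1, which anchors mTOR signalling to lysosomes, had 3.61 to 4.06 normalised reads in healthy and 4.98 to 30.01 in defect libraries (log2 fold change 1.73 ± 0.46, adjusted p = 0.0470). It missed the call in 8 of 9 fits without 1 library, all but that without CLCS 3 (adjusted p 0.0504 to 0.134), and with averaged libraries (0.0819).

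Among 12 tested autophagy and mTOR genes 3 rose and 1 fell, with a median of 0.14. VMP1, a membrane protein of autophagosome formation, had 2.03 to 2.83 normalised reads in healthy and 7.88 to 23.6 in defect libraries (log2 fold change 2.12 ± 0.33, adjusted p = 0.00612). AMBRA1, an activator of autophagy, had 5.42 to 13.2 and 18.7 to 47 (log2 fold change 1.89 ± 0.34, adjusted p = 0.0107), and EPG5, which tethers autophagosomes to lysosomes, 4.71 to 9.13 and 19.9 to 150.0 (log2 fold change 2.56 ± 0.60, adjusted p = 0.0296). None of the 3 had overlapping groups. VMP1 overlaps PTRH2 and AMBRA1 overlaps HARBI1. AMBRA1 missed the call without Healthy 3 (0.0523), and EPG5 without Healthy 1 (0.0975), Healthy 2 (0.0525), Healthy 3 (0.0951), Untreated 1 (0.0557) and CLCS 2 (0.0540). UVRAG, a partner of beclin 1 in autophagosome maturation, moved the other way. It had 11.3, 12.2 and 28.9 normalised reads in healthy cartilage and 1 read in the 6 defect libraries together (log2 fold change -3.93 ± 0.34, adjusted p = 0.00126), a ratio of read rates of 109 with an exact 95% counting interval of 18.8 to 4396.

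**Figure D4:**
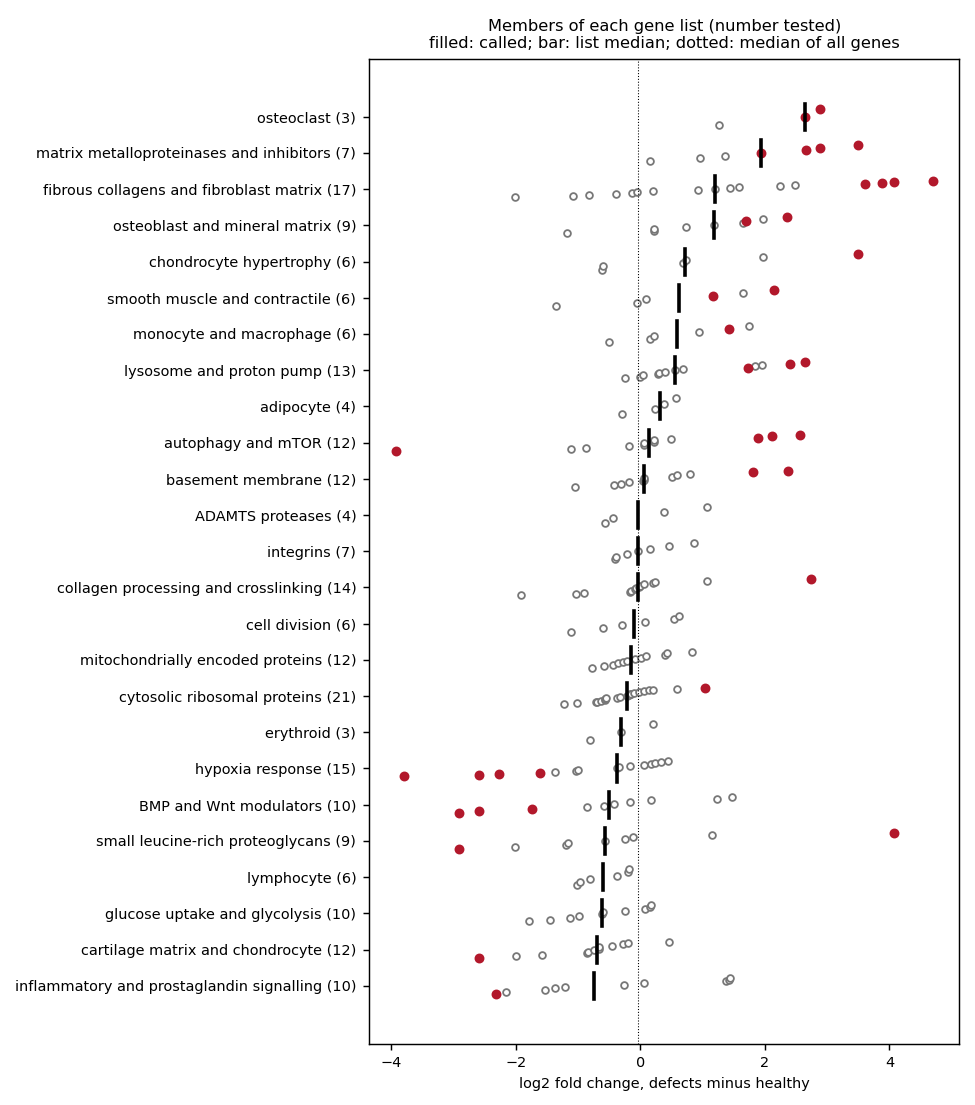
Log2 fold changes of defects over healthy cartilage for the tested members of 25 gene lists with 3 or more tested. Filled points passed the test, open points did not, bars are list medians and the dotted line is the median of all tested genes. The osteoclast and MMP lists have the highest medians.

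Most of the other largest increases belonged to no list. The 15 largest increases and 15 largest decreases were taken from called genes whose defect and healthy libraries did not overlap, so that separation is part of their choice. FBXL13, an F-box protein, counted 5.65, 13.2 and 6.32 normalised reads in the healthy libraries, 102, 126 and 459 in untreated and 136, 261 and 121 in CLCS treated defects (log2 fold change 4.28 ± 0.49, adjusted p = 0.00127), and its locus overlaps ARMC10, FAM185A and LRRC17. KCTD19 counted 42.4, 153 and 61.4 normalised reads in the healthy libraries, 607, 555 and 4479.8 in untreated and 1247, 616 and 1906 in CLCS treated defects (log2 fold change 3.93 ± 0.68, adjusted p = 0.00903) and overlaps PLEKHG4, with LRRC36 within 1000 bases. SLC9A5, a sodium and proton exchanger, lies within 1000 bases of PLEKHG4 as well and had 0 to 8.13 normalised reads in healthy and 52.3 to 145 in defect libraries (log2 fold change 4.0 ± 0.65, adjusted p = 0.00646). In all 3 genes Untreated 3 was the highest library. KCTD19 and SLC9A5 thus rose around PLEKHG4, which itself had 13 to 20 reads in healthy and 3 to 13 in defect libraries.

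SLC19A1, the reduced folate carrier, counted 77.3, 137 and 78.6 normalised reads in the healthy libraries, 349.8, 778 and 3429.9 in untreated and 796, 686 and 1149 in CLCS treated defects (log2 fold change 3.27 ± 0.58, adjusted p = 0.00989), also with Untreated 3 highest. OIP5, which helps to load centromeres, had 1.01 to 10.4 normalised reads in healthy and 48 to 209 in defect libraries (log2 fold change 3.65 ± 0.62, adjusted p = 0.00783). For METTL7B these were 3.61 to 11.2 and 62 to 137 (log2 fold change 3.56 ± 0.37, adjusted p = 0.00127), and for PMCH, the precursor of melanin concentrating hormone, which overlaps PARPBP, 4.71 to 10.8 and 47.2 to 170.5 (log2 fold change 3.41 ± 0.38, adjusted p = 0.00127). These 4 genes kept the call without any 1 library. OIP5 lies within 1000 bases of NUSAP1. C12orf4 had no read in the 3 healthy libraries and 4.0 to 24.8 normalised reads in the defects (log2 fold change 3.51 ± 0.42, adjusted p = 0.00161). Against a floor of 3 reads over the healthy group it was at least 12.5-fold higher.

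A pair of genes without a symbol completed the 15. ENSOCUG00000027376 counted 0.942, 1.01 and 2.71 normalised reads in the healthy libraries, 15.8, 10.002 and 194 in untreated and 17.6, 25.6 and 111 in CLCS treated defects (log2 fold change 3.86 ± 0.85, adjusted p = 0.0223), and ENSOCUG00000023169 had 0.903 to 3.04 normalised reads in healthy and 5.90 to 209 in defect libraries (log2 fold change 3.44 ± 0.90, adjusted p = 0.0448). Both varied more among the defects than the genes above. The first missed the call without Healthy 1 (0.0759), Healthy 2 (0.0670) and Healthy 3 (0.0574), and the second in 6 of 9 fits, those without Healthy 1, Healthy 2, Healthy 3, Untreated 1, CLCS 1 and CLCS 3 (adjusted p 0.0693 to 0.143). With averaged libraries their adjusted p were 0.0538 and 0.0713.

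Among the largest decreases, 2 abundant genes overlap better known ones. TPR, a nuclear pore protein, counted 9497, 11763 and 9388 normalised reads in the healthy libraries, 269, 1138 and 388 in untreated and 655, 3705 and 1676 in CLCS treated defects (log2 fold change -3.52 ± 0.71, adjusted p = 0.0157). Its locus overlaps PRG4, lubricin, the lubricating proteoglycan of the cartilage surface. PRG4 was among the chondrocyte markers not matched by symbol, so it has no level of its own here. NUDT6, a Nudix hydrolase that overlaps FGF2, a growth factor stored in cartilage matrix, counted 2325, 5246 and 2707 normalised reads in the healthy libraries, 245, 624 and 99.7 in untreated and 225, 594 and 295 in CLCS treated defects (log2 fold change -3.46 ± 0.55, adjusted p = 0.00621). In both genes every healthy library lay far above every defect library. TPR lost its call without Healthy 1 (0.0510), Healthy 2 (0.0508) and Healthy 3 (0.0574), and NUDT6 kept it without any 1 library.

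Other decreases were in genes of lower level. NUP54, another nuclear pore protein, had 11.2 to 20.8 normalised reads in healthy and 0 to 3.74 in defect libraries (log2 fold change -3.02 ± 0.50, adjusted p = 0.00685), and TMIE, known from hair cell mechanotransduction, 13.2 to 30.2 and 0 to 3.0 (log2 fold change -3.62 ± 0.49, adjusted p = 0.00298). MRS2, a mitochondrial magnesium channel, which overlaps GPLD1, had 17.2 to 33.9 and 0.788 to 5.17 (log2 fold change -2.90 ± 0.48, adjusted p = 0.00685). AP5Z1, an adaptor protein of late endosomes, had 61.2 to 175 and 4.53 to 28.6 (log2 fold change -2.88 ± 0.57, adjusted p = 0.0141) and lost its call without Healthy 2 (0.0516). NUP54 lies within 1000 bases of ART3, and AP5Z1 of RADIL. The largest decrease of all was ENSOCUG00000005327, which counted 4478, 3858 and 6407 normalised reads in the healthy libraries, 102, 77 and 102 in untreated and 163, 365 and 361 in CLCS treated defects (log2 fold change -4.89 ± 0.52, adjusted p = 0.00127). Its levels in the defects were all far below healthy cartilage, with the untreated libraries lowest. ENSOCUG00000005336 had 413 to 830.1 normalised reads in healthy and 49.9 to 115 in defect libraries (log2 fold change -2.89 ± 0.32, adjusted p = 0.00127). The remaining 3 of the 15 have no symbol. Among the called genes 79 of 223 matched to RefSeq (35.4%) overlap another gene, against 790 of 2930 (27.0%) of all tested genes, and no test was made on this share.

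The 2 kinds of defect were then compared with each other, by a contrast that uses no healthy library. Of 3812 genes 0 passed (limma, smallest adjusted p 0.568), 105 (2.75%) had an unadjusted p under 0.05, and edgeR and DESeq2 on recovered reads also gave 0, with 82 and 77 genes at an unadjusted p under 0.05. Among the 287 genes called against healthy cartilage, 14 (4.88%) had an unadjusted p under 0.05, and among the 251 genes called from the mean of the untreated and CLCS group means it was 19 (7.57%). In 18 of these 19 genes, and in 184 of the 287, CLCS treated defects lay closer to healthy cartilage than untreated ones. The same share over all tested genes is not given, and no test was made on it. Selection on the pooled test favours genes whose 6 defect libraries lie close together. For 91 of the 287 genes the 95% interval of CLCS minus untreated lay within 1 log2 unit of 0. For the others it reached beyond 1 log2 unit on at least 1 side. COL1A1 gave 0.16 (95% interval -1.27 to 1.59) and POSTN 0.0029 (95% interval -1.48 to 1.48). MMP13 was lower in CLCS treated than in untreated defects, with a log2 difference of -1.10 (95% interval -1.83 to -0.36). Its log2 fold changes over the same healthy libraries were 4.04 in untreated and 2.95 in CLCS treated defects. ENSOCUG00000005327 had log2 fold changes of -5.67 and -4.10, a difference of 1.57 (95% interval 0.72 to 2.42). TPR gave 1.70 (95% interval 0.19 to 3.20). These 3 did not pass adjustment over all genes (adjusted p 0.9998 for each). COL2A1 did not pass either (adjusted p 0.9998), with a difference of 2.33 (95% interval 0.24 to 4.42), with Untreated 3 lowest of the 9 libraries and CLCS 3 highest. Over the 183 higher genes, the median log2 fold change was 1.88 in untreated and 1.74 in CLCS treated defects, and over the 104 lower genes -1.93 and -1.72. Both kinds share the healthy libraries, so the values are set side by side only.

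**Figure D5:**
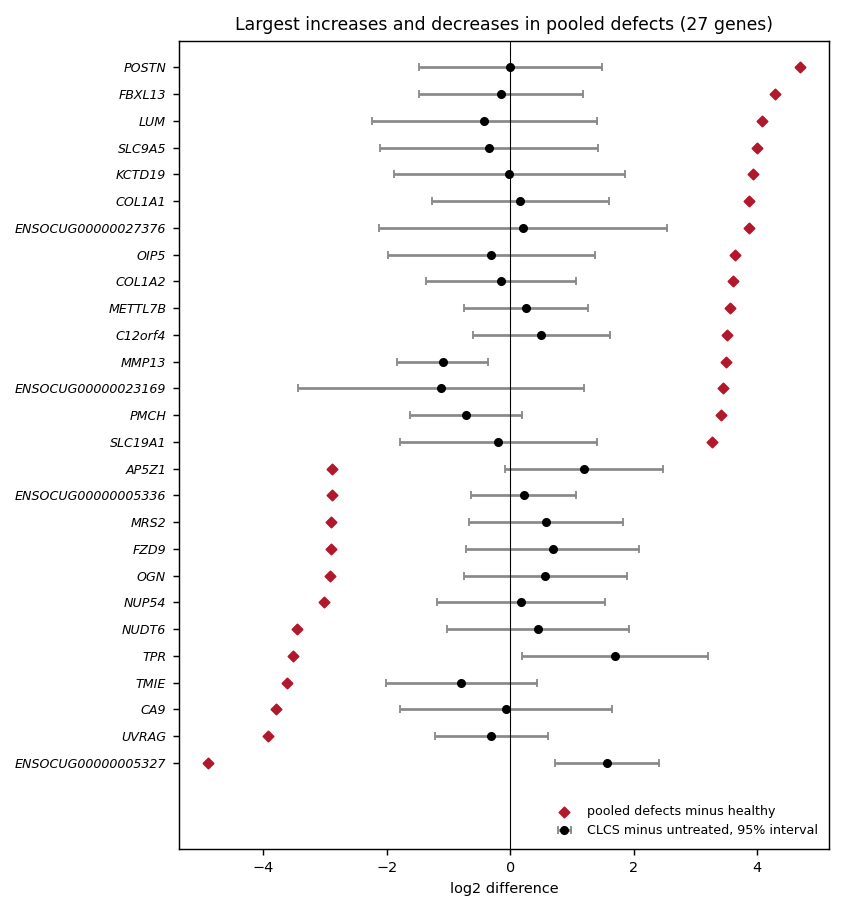
Log2 differences of 27 of the 30 largest increases and decreases. Red diamonds are pooled defects minus healthy, and black points with 95% intervals are CLCS minus untreated, where MMP13, TPR and ENSOCUG00000005327 have intervals that leave out 0. The 3 genes not drawn have no symbol and are not named.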

How the data were processed

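Gene expression was measured in 9 libraries, 3 each of healthy cartilage, untreated defects and CLCS treated defects, grouped by their titles. The authors made polyA TruSeq libraries, aligned reads to oryCun2.0 with TopHat and Bowtie and counted genes with eXpress, and the deposited signal is reads divided by the DESeq2 size factor. Tool versions, annotation release and strand setting are not given in the sources used here. The 3 healthy columns occur in both tables, with equal values, and entered once. Whole reads were recovered for 100% of values (tolerance 0.001) of 14870 genes, 11076 with a symbol. Library totals were 724986 to 1226408, which limits precision for genes with few reads. These totals lie far below the aligned pairs that the study lists per library, and the reason was not tested. Intervals and floors cover counting error only.

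The 6 defect and 3 healthy libraries were compared with limma 3.58.1 (lmFit, eBayes, R 4.3.3) after adding 1 to the deposited values and taking log2, for genes kept by filterByExpr of edgeR 4.0.16 (minimum count 10). CLCS minus untreated came from a fit of 3 group means. Members and gene lists were chosen with earlier results of these data known. Named genes were the 15 largest increases and 15 largest decreases among called genes with non-overlapping libraries, up to 6 called members of each list by adjusted p, up to 3 highest members of lists with no call, and marker genes. Deviations of untreated and CLCS libraries of equal replicate number were correlated (0.246, 0.334 and 0.297). Libraries of unequal number were not compared, so these values do not show that the numbers mark pairs, and no label says so. Alternatives were other pseudocounts and filters, TMM scaling, edgeR and DESeq2 1.42.0 on recovered reads, a replicate block and leaving out each library. RefSeq neighbours were matched by symbol from mOryCun1.1. The limma fits without a block, edgeR and DESeq2 were tested on simulated data. The main fit called 0 of 181 tested genes given a log2 change of 1. With a change of 2 it called 140 of 165 (84.8%), and with 3 it called 159 of 159. A gene that did not pass is therefore not shown to be unchanged.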

Additional observations from a re-analysis of the deposited data

Results flagged for a closer look

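Among the 6 defect libraries, 98 measures (93 named genes and 5 library measures) were tested for a library far from the rest, and 9 had one. Chance alone gives about 1 in 20. In 7 of the 9 it was Untreated 3, 1 of them (UVRAG) by a single read against none in the other 5. The share of reads on the most abundant gene of the series was 1.49% in Untreated 3 and 17.8% to 49.4% in the other 5. Normalised reads in Untreated 3 against the other 5 defect libraries were 64.4 against 116 to 152 for CILP, 559 against 1417 to 2323 for IBSP, 0 against 1.97 to 2.49 for GREM1, 25.4 against 62.0 to 102 for SPTB, 145 against 52.3 to 66.1 for SLC9A5 and 0.907 against 0 for UVRAG, where any single read would stand apart. CLCS 3 was the highest defect library for MYLPF (18.7 against 9.84 to 12.4) and for a called gene without a symbol (16.2 against 0.788 to 2.0).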

How the results depend on the processing

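The count of genes called between defects and healthy cartilage, 287, was 286 with a pseudocount of 0.5, 330 with 5, 218 with no filter, 292 with a stricter filter, 305 with TMM, 350 and 345 with edgeR and 484 with DESeq2, and 277 of the DESeq2 calls were among the 287. Leaving out 1 library gave 130 to 262. Averaging untreated and CLCS libraries of equal number gave 136. As alternatives added after seeing the data, untreated defects alone gave 82 calls and CLCS treated defects alone 85. The replicate block gave 385, but defect and healthy libraries of equal number did not all deviate together (correlations from -0.036 to 0.288). For CLCS against untreated the count was 0 under every alternative run, with 61 to 553 genes at an unadjusted p under 0.05 and 148 with the replicate block. Of 55 named genes called by the rule, 29 kept the call without any 1 library and 38 in the averaged fit. Named genes that changed sign were none of the called ones. COL2A1 turned to 0.28 with edgeR (TMM and DESeq2 size factors) and DESeq2, 0.71 in CLCS alone, and ranged -0.88 to 0.28 without 1 library. COL9A2 was 0.35 in CLCS alone and COL9A1 -0.23 in untreated alone. ITGA5 was 0.0023 with TMM and 0.017 in untreated alone, LIPE -0.031 and PFKP -0.005 in untreated alone, ND5 -0.17 and ND4 -0.13 in CLCS alone. Without 1 library the ranges were -0.25 to 0.94 for COL9A1, -0.19 to 0.087 for ITGA5, -0.16 to 0.19 for PFKP, -0.15 to 0.39 for ND5, -0.16 to 0.34 for ND4, -0.26 to 0.53 for MYLPF, -0.60 to 0.14 for IRF7 and -1.15 to 0.43 for ITGB4. The cause was not tested. Between 724986 and 1226408 reads limit what can be seen in genes with few reads.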

Other observations

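Groups that the comparison did not call are given here as values. Of 7 integrins tested 0 passed, with a median log2 fold change of -0.032, whose sign turned with TMM scaling and without Healthy 2, Healthy 3 or CLCS 2. ITGA11 counted 219 to 301 normalised reads in healthy and 203 to 259 in defect libraries (median 216), and ITGA5 counted 33 to 48.7 normalised reads in healthy and 28.5 to 52.3 in defect libraries (median 40.5). Of 6 cell division genes 0 passed. CCNB1, a mitotic cyclin, counted 29.4 to 47.1 normalised reads in healthy and 20.5 to 31 in defect libraries (median 25.3), and CDK1 counted 16.3 to 32.5 normalised reads in healthy and 12.8 to 22.4 in defect libraries (median 17.3). Of 12 mitochondrially encoded genes 0 passed, and ND6 counted 10368 to 13473 normalised reads in healthy and 15257 to 29229 in defect libraries (median 22502) (log2 fold change 0.82, SE 0.28, adjusted p = 0.103). In every library ND6 alone took 86.0% to 94.4% of the reads of the mitochondrially encoded genes. Which strand was counted was not tested. Among 21 cytosolic ribosomal proteins 1 rose, RPL10, a share near the 4.8% of all genes that rose. RPL10 counted 1349 to 2294 normalised reads in healthy and 2769 to 4323 in defect libraries (median 3497) (log2 fold change 1.04, SE 0.24, adjusted p = 0.0296). The list median was -0.22 (0.0038 without Healthy 1) and 16 of the 21 changes were negative. RPL10 missed the call with averaged libraries (adjusted p 0.107) and without Healthy 2 (0.0952), Healthy 3 (0.100), Untreated 3 (0.0516), CLCS 1 (0.0631) and CLCS 2 (0.0524).

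Markers of other cell types are given as sums of normalised reads over the matched genes of short defining lists. T and B cell markers summed to 13.2 to 15.4 in healthy, 7.25 to 12.6 in untreated and 7.23 to 12.8 in CLCS libraries. Neutrophil and marrow markers were at most 7.0 reads per gene and library, and the 3 matched of 5 defining erythroid markers at most 6.0. Skeletal muscle markers summed to 0 to 20.3 in healthy, 4.53 to 6.0 in untreated and 1.97 to 5.17 in CLCS libraries, and adipocyte markers to 21.3 to 33.4 in healthy, 30.8 to 33.9 in untreated and 35.4 to 46.5 in CLCS libraries. Wider lists of these cells held genes at higher levels. In the lymphocyte list 0 of 6 passed, and CD28 counted 29.4 to 387 normalised reads in healthy and 16.3 to 140.2 in defect libraries (median 53.7), CD79B 65.1 to 69 normalised reads in healthy and 46.1 to 77 in defect libraries (median 58.6) and CD5 32.5 to 58.4 normalised reads in healthy and 11.8 to 55.1 in defect libraries (median 28). In the erythroid list 0 of 3 passed, and SPTB, a spectrin chain, counted 102 to 129 normalised reads in healthy and 25.4 to 102 in defect libraries (median 70.7).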
